A study of Mus musculus with 3 samples.

Results

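The 9 genes described here encode Kruppel-like factors (KLF) other than Klf2, namely Klf3, Klf4, Klf6, Klf7, Klf9, Klf10, Klf11, Klf12 and Klf13. They were read from microarrays of thymocytes that carry both CD4 and CD8, called double-positive (DP) cells, an intermediate stage of T cell development. The members are the named genes themselves, and a gene is represented by its brightest probe set carrying that symbol alone. Each of the 9 had exactly 1 such probe set, among 19938 genes measured. The series holds 3 arrays in 1 group, wild-type C57BL/6 mice aged 5 to 6 weeks. The replicates are cohorts of litter mates, and their arrays are numbered 1 to 3 as in the labels. Cells were taken by magnetic sorting for CD8 and then CD4. No treatment, mutant or second stage is present, so what can be compared is the 3 cohorts with one another. The values are log2 expression values, on which 1 unit is a doubling of signal.

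KLF proteins bind GC-rich and CACCC-type sequences through zinc fingers at their carboxyl end, and their amino ends decide what they recruit. Klf3 and Klf12 belong to a branch that recruits the corepressor CtBP. Klf4, Klf6 and Klf7 belong to a branch with acidic activating regions, and Klf9, Klf10, Klf11 and Klf13 to a branch that recruits the corepressor Sin3A. In lymphocytes the family is known for holding cells in quiescence (Klf2 and Klf4) and for restraining or relaying growth signals such as TGF-beta (Klf10 and Klf11).

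The sort markers were high on every array, and 9 of 9 measured DP markers lay above background on all 3. Cd4 had 11.59, 11.88 and 11.76 on arrays 1, 2 and 3. A value was called above background where it passed the 95th percentile of 97 probe sets whose genes are typical of organs such as liver or brain, a limit of 7.35, 7.47 and 7.36. Array 1 stood apart from the other arrays, with Pearson's r across probe sets of 0.993 against each and of 0.996 between arrays 2 and 3. Xist, the RNA that coats the inactive X chromosome of females, had 11.65 on array 1 and 5.40 and 5.68 on the others. The labels do not give the sex of the cohorts.

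Of the 9 KLF genes, 7 passed the background limit on every array, and Klf9 and Klf12 lay below it on every array. Over all genes 41.3% lay above background on all arrays. The median level of the 9 members was 9.13, against 6.85 for all genes and 9.09 for the genes above background on all arrays. The signal of a probe set depends on its probes, so the levels of different KLF genes were not ranked. KLF genes are related in sequence, and how far their probes see a relative was not examined here.

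**Figure D1:**
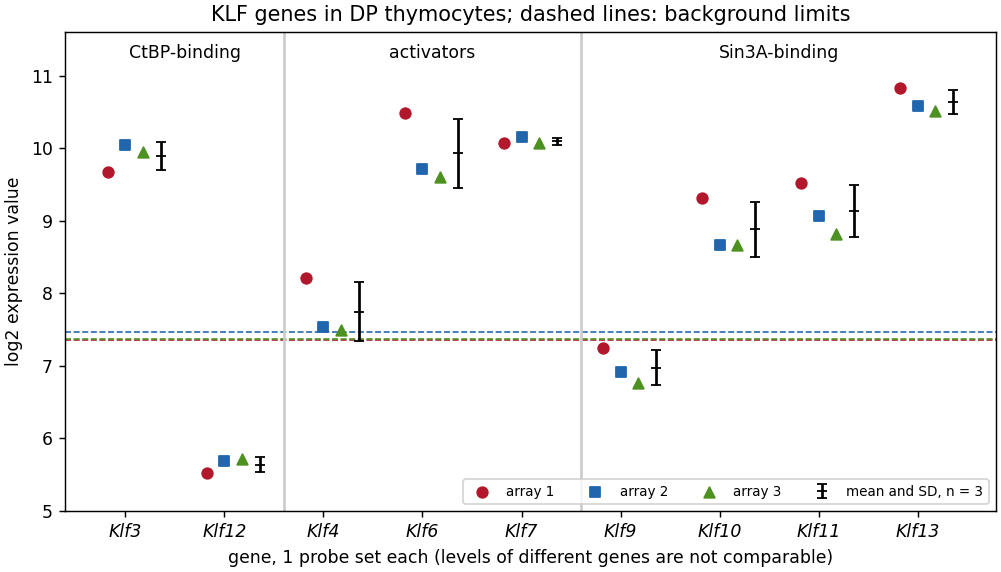
Log2 expression value (vertical axis) of each KLF gene on arrays 1, 2 and 3 (points), with the mean and SD over the arrays beside them and the background limit of each array as a dashed line. Klf12 and Klf9 sit below the limits and Klf4 just above them on arrays 2 and 3, and array 1 is the highest point for Klf4, Klf6, Klf9, Klf10, Klf11 and Klf13.

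The members are taken here by role, a grouping made after their values were seen. Neither CtBP-binding member was highest on array 1, where 36.4% of all genes were, and only Klf3 of the pair was above background. Klf3, a repressor that is broadly expressed in blood cells, had 9.67, 10.05 and 9.95 on arrays 1, 2 and 3 (mean 9.89 ± 0.20, SD, n = 3). It was lowest on array 1, and arrays 2 and 3 differed by 0.10. Klf12, a repressor first described at the gene of the factor AP-2 alpha, had 5.52, 5.68 and 5.71 (5.64 ± 0.10, SD, n = 3). These values lay well under the limit of each array, so they do not measure its level. Tfap2a, the AP-2 alpha gene, was also below background on all arrays, with 5.33 ± 0.19 (SD, n = 3).

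Among the activators, Klf6 and Klf4 were highest on array 1 and Klf7 was flat. Klf6, a factor whose transcription answers growth and injury signals within a short time, had 10.48, 9.71 and 9.61 on arrays 1, 2 and 3 (9.93 ± 0.48, SD, n = 3). Array 1 was 1.83-fold above array 3, the widest range of any member, while arrays 2 and 3 differed by 0.10. Klf4, which restrains the cell cycle in T cells and is otherwise known from epithelium and monocytes, had 8.21, 7.54 and 7.49 (7.75 ± 0.40, SD, n = 3). It passed the limit by 0.86 on array 1 and by 0.07 and 0.13 on arrays 2 and 3. With the 99th percentile of the organ-specific genes as the limit it was above background on 1 array. Klf7, a relative of Klf6 studied mainly in neurons, had 10.07, 10.15 and 10.07 (10.10 ± 0.05, SD, n = 3), a range of 0.08 on the log2 scale.

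All 4 Sin3A-binding members, a group set after the values were seen, were highest on array 1, by different amounts. Array 1 was highest for 36.4% of all genes, and Klf9 of the 4 was below background. Klf10, a gene induced by TGF-beta, had 9.32, 8.66 and 8.67 on arrays 1, 2 and 3 (8.88 ± 0.38, SD, n = 3), so arrays 2 and 3 were level and array 1 stood above them. Klf11, the other TGF-beta-inducible member, had 9.52, 9.06 and 8.82 (9.13 ± 0.36, SD, n = 3). Here arrays 2 and 3 also differed, by 0.24. Klf13, known in T cells for driving the chemokine gene Ccl5, had 10.83, 10.58 and 10.52 (10.64 ± 0.16, SD, n = 3), a smaller step of 0.31 in all. Klf9, a gene induced by glucocorticoid and thyroid hormone, had 7.24, 6.92 and 6.76 (6.97 ± 0.24, SD, n = 3). It came close to the limit of 7.35 on array 1, and with the median of the organ-specific genes plus 1 log2 unit as the limit it was above background on 2 arrays.

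Across the members, 6 of 9 were highest on array 1, 2 on array 2 and 1 on array 3. Array 1 was the highest for 36.4% of all genes and for 40.7% of the genes above background on all arrays. The highest and lowest array differed by more than 0.5 log2 units for 4 members, Klf4 (0.72), Klf6 (0.87), Klf10 (0.66) and Klf11 (0.70), and array 1 was the highest in each. Such a range was seen for 7.68% of all genes and for 4.47% of those above background on all arrays, and with array 1 highest for 3.22% of the latter. Klf9, at 0.48, lay just under the threshold. The median range of the 9 was 0.48, against 0.21 for all genes. Their median deviation from the 3-array mean was 0.27, -0.06 and -0.21 on arrays 1, 2 and 3, where all genes had medians of -0.01, 0.01 and 0.00.

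With 1 group, the only test the design allows is whether a gene varied between cohorts more than probe sets of its level usually do. By limma's variance test, fitted over 28944 probe sets with Benjamini-Hochberg adjustment, 0 of the 9 members passed an adjusted p of 0.05. That test called 6 probe sets, or 0.0207% of those tested. The lowest adjusted p among the members was 0.861, for Klf6 (limma), and every other member had an adjusted p of 0.988 or more. Unadjusted p-values under 0.05 were found for 4 of the 9, namely Klf6 (0.00452), Klf10 (0.0132), Klf4 (0.0153) and Klf11 (0.016) by limma, and for 4.66% of all probe sets. The step on array 1 therefore did not pass the correction for any single KLF gene, and it rests on 1 array that has no replicate of its own. Junb, with a range of 1.78 log2 units, had an adjusted p of 0.326 by limma. With all arrays the test thus could not decide on steps as small as those of the KLF genes. With a floor of 1e-05 under the variances, tried first and replaced after its calls were seen, limma called Klf6 without array 2 (adjusted p 0.00361) and without array 3 (adjusted p 0.0282), and 0 members with all arrays or without array 1. Without the floor, leaving out an array gave adjusted p-values of 0.898 or more for every member. Without array 1 no member had a range over 0.5. The ranges of Klf4, Klf6 and Klf10 were then 0.05, 0.10 and 0.01, and that of Klf11 was 0.24.

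**Figure D2:**
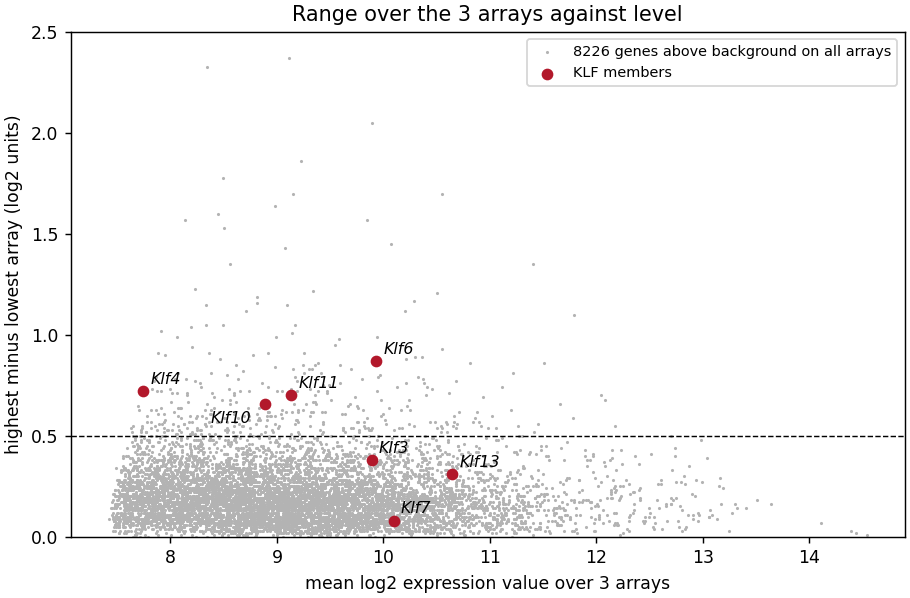
Highest minus lowest array in log2 units (vertical axis) against mean log2 value (horizontal axis), for the 8226 genes above background on all arrays (grey) and the 7 KLF members among them (red), with the 0.5 threshold dashed. Klf4, Klf6, Klf10 and Klf11 lie above the line with ranges from 0.66 to 0.87, and Klf7 lies at 0.08.

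The promoters of the genes that stepped together on array 1 were read for known motifs. RefSeq promoters (GRCm38.p6, 250 bases before to 50 after the start site) were in hand for 8 of the 9 members, all but Klf10. The sequences of Klf6, Klf4 and Klf11, which had ranges over 0.5, are shown with that of Klf3, which was lowest on array 1. Capitals mark the GC box GGGCGG, to which SP and many KLF proteins bind, and the CCAAT box CCAAT, bound by the factor NF-Y, on either strand. The windows are chr13:5861239-5861538 on the plus strand, chr4:55532426-55532725 on the minus strand, chr12:24651121-24651420 on the plus strand and chr5:64803271-64803570 on the plus strand, each printed 5′ to 3′ along its gene.
Klf6: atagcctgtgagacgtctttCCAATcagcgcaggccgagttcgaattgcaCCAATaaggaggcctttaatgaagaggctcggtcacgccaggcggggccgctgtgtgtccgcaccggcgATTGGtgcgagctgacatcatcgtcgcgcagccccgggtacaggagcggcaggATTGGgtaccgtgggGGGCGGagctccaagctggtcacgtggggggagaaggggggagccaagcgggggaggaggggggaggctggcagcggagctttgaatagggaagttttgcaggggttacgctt
Klf4: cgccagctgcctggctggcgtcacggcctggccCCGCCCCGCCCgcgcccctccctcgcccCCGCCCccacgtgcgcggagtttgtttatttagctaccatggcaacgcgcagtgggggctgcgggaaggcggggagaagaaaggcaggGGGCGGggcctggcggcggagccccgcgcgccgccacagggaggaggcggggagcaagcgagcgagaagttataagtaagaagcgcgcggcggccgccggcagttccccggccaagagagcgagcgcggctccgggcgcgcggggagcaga
Klf11: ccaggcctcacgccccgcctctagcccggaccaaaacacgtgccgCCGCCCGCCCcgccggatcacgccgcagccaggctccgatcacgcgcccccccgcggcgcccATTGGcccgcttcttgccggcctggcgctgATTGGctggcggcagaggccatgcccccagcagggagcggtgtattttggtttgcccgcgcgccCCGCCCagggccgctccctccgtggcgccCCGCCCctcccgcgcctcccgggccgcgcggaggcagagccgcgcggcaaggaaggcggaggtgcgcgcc
Klf3: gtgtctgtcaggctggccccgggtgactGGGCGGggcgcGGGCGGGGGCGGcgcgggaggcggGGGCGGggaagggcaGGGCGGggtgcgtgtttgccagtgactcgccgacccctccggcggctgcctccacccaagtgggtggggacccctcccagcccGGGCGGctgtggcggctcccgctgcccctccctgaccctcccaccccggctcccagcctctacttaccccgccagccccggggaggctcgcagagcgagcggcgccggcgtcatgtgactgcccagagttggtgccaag

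The Klf6 window holds 4 CCAAT boxes and 1 GC box, and that of Klf11 holds 2 and 4. The Klf4 window holds 4 GC boxes and that of Klf3 holds 6, and neither holds a CCAAT box. Overlapping GC boxes, as in the Klf4 and Klf11 windows, were counted separately. The GC box is thus the motif, of the 16 searched, that the Klf6, Klf4 and Klf11 windows all hold, and the window of Klf3 holds it too. Across the 8 members, 6 windows hold a GC box and 4 a CCAAT box, against 35.7% and 37.4% of the 32851 promoters in the table. GC content was 63.0% for Klf6, 74.3% for Klf4, 77.7% for Klf11 and 76.7% for Klf3, against a median of 52.7% over the table. The CACCC box, CACCC, was found in 5 of 8, Klf3, Klf7, Klf9, Klf12 and Klf13, and in 57.5% of all promoters, and some of its matches overlap a GC box.

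Sites of the factors that the wider project mapped by chromatin immunoprecipitation were searched as well. The E box forms CAGGTG and CAGCTG, which E47 can bind, were present in the Klf4 and Klf12 windows and in 32.9% of all promoters. The RUNX site TGTGGT and the ETS site CCGGAAG were found in 0 of 8 windows, against 16.8% and 8.86% of all promoters. A FOXO site, TGTTTAC or TGTTTAT, was found for Klf4 and Klf9 and in 7.97% of all promoters. Full elements of signal-induced genes were found in 0 of 8. These were the cAMP response element TGACGTCA (1.79% of all promoters), the serum response CArG box (1.63%) and the AP-1 sites TGAGTCA and TGACTCA (5.2%), the SMAD site GTCTAGAC (0.213%) and the NF-kB site (0.807%). The shorter form TGACG of the cAMP response element was found in 5 of 8, Klf3, Klf4, Klf9, Klf12 and Klf13, and in 20.8% of all promoters. The shorter form TGTTCT of glucocorticoid response elements was found in 0 of 8 and in 19.0% of all promoters. The TATA box TATAAA was found for Klf12 alone and in 13.6% of all promoters. The longer CCAAT forms ATTGGC and ATTGGT, which overlap the CCAAT box, were found in the same 4 windows as CCAAT and in 23.4% of all promoters. All motifs were searched on both strands. No match means only that these letters are not in this window.

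**Figure D3:**
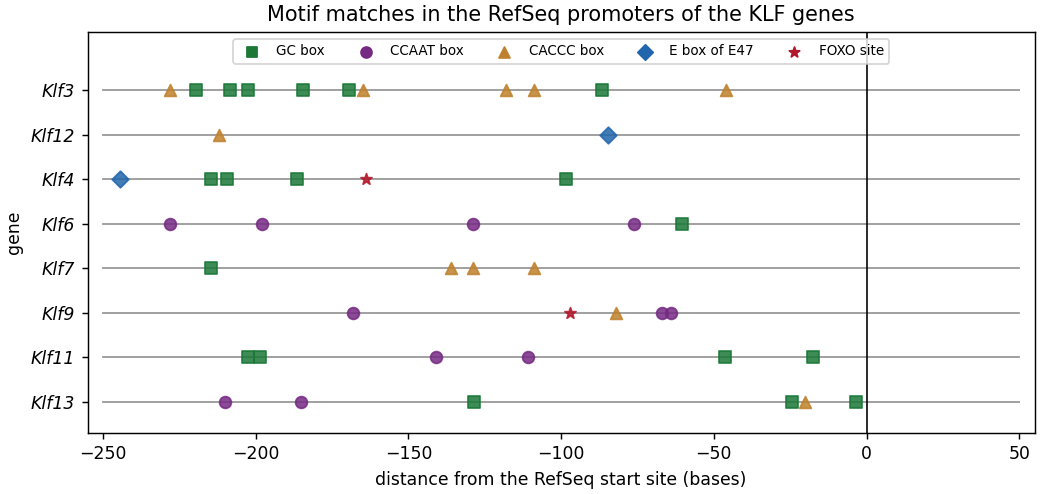
Matches of 5 motifs on either strand (symbols) along the RefSeq promoters of 8 KLF genes, by distance in bases from the start site at 0. GC boxes appear in 6 of the 8 windows and CCAAT boxes in 4, those of Klf6, Klf9, Klf11 and Klf13.

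Of the 8 other KLF genes, 4 lay above background on all arrays, against 41.3% of all genes. Klf2, the regulator of thymic exit, had 9.13, 8.43 and 8.41 on arrays 1, 2 and 3. It was the 1 gene of these 8 with a range over 0.5, against 7.68% of all genes. Klf16, another Sin3A-binding member, had 9.25, 8.75 and 8.77. Klf14, which is intronless, had 8.37, 8.48 and 8.43, and Klf5, near the limit, had 7.59, 7.54 and 7.53, so neither stepped on array 1. The erythroid gene Klf1 (5.91 ± 0.06, SD, n = 3), Klf8, the third CtBP-binding relative (5.80 ± 0.11, SD, n = 3), Klf15 and Klf17 lay below background on every array. Klf8 and Klf12 of the CtBP branch were thus both below background, and Klf3 was its detected member.

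**Figure D4:**
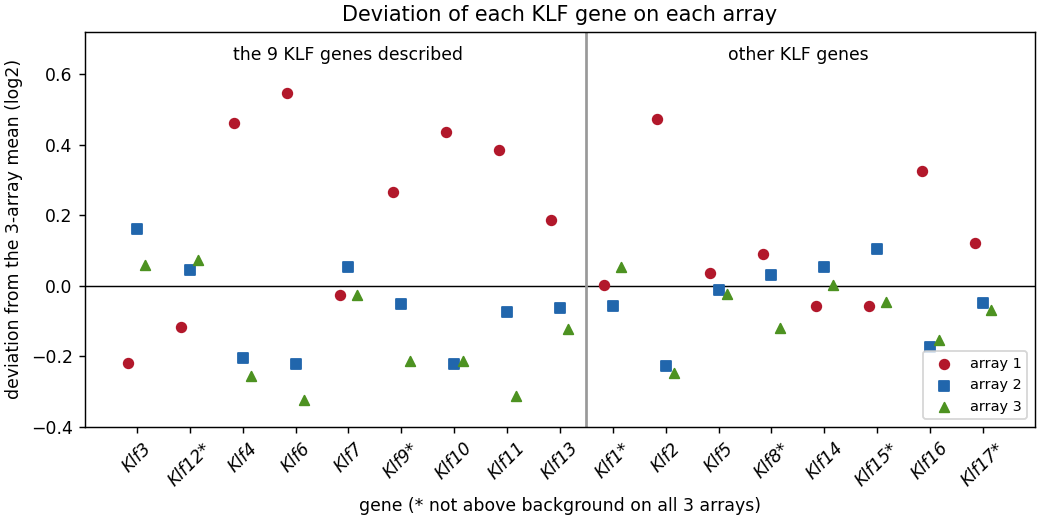
Deviation from the 3-array mean in log2 units (vertical axis) of each KLF gene on arrays 1, 2 and 3. Array 1 lies highest for Klf4, Klf6, Klf9, Klf10, Klf11 and Klf13 on the left and, among the genes above background on the right, for Klf2, Klf16 and, by a small margin, Klf5. It lies lowest for Klf3 and Klf12 on the left, where Klf7 is level with array 3, and for Klf14 and Klf15 on the right.

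The related SP factors, which bind the same GC boxes, had small ranges. Of 8 measured SP genes, 3 lay above background on all arrays, against 41.3% of all genes, and 5 lay below it on every array. Sp1 had 9.46, 9.42 and 9.47 on arrays 1, 2 and 3, Sp3 had 10.36, 10.43 and 10.46, and Sp4 had 9.08 ± 0.10 (SD, n = 3). None of the 8 had a range over 0.5, as 7.68% of all genes did, and their median deviation on array 1 was -0.01. It was 0.27 for the 9 KLF genes described here and 0.06 for the 8 other KLF genes. These differences were not tested.

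Most of the cofactors through which KLF proteins act were above background, with 10 of 12 on all arrays, against 41.3% of all genes. The CtBP gene Ctbp1 had 11.23 ± 0.04, whereas Ctbp2 had 6.21 ± 0.26 and was below background on every array (SD, n = 3). Sin3a had 10.00 ± 0.08 and Sin3b had 10.20 ± 0.25 (SD, n = 3). Sap30, a subunit of the Sin3 complex, passed the limit on 2 arrays, with 7.74, 7.36 and 7.42. No cofactor had a range over 0.5, as 7.68% of all genes did. Array 1 was lowest for 7 of the 12, for 41.5% of all genes and for 43.4% of those above background on all arrays.

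All 11 measured quiescence regulators lay above background on every array, against 41.3% of all genes. Ranges over 0.5 were found for 2 of them, highest on array 1, against 7.68% of all genes with such a range. Foxo1, the factor upstream of Klf2 in T cells, had 9.82, 9.02 and 8.91 on arrays 1, 2 and 3, and Tob1, an antiproliferative gene, had 9.81, 8.76 and 8.94. Foxo3 (9.83, 10.04 and 10.02) and Foxp1 (10.45, 10.36 and 10.50) had ranges of 0.21 and 0.14. The list's median deviation on array 1 was 0.05. Foxo1 was also the gene most like Klf6 in its array pattern. Among 8225 other genes above background on all arrays, the smallest Euclidean distances to the 3 deviations of Klf6 were those of Foxo1 (0.029), Tnfsf11 (0.037; 9.21, 8.45 and 8.39 on arrays 1, 2 and 3) and Arc (0.042; 9.35, 8.52 and 8.45). Klf2, looked up after its values were seen, ranked 3 for likeness to Klf4, 16 to Klf10, 21 to Klf6 and 136 to Klf11. Its rank was 6215 for Klf13, 8144 for Klf7 and 8151 for Klf3. With 3 arrays such likeness is a description of 3 values a gene.

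Among genes on which KLF proteins are known to act, 9 were measured. Of these, 4 lay above background on all arrays, against 41.3% of all genes. They were S1pr1 (7.83 ± 0.24), Itgb7 (8.11 ± 0.05), Ccr7 (8.19 ± 0.14) and Bcl2l1 (11.00 ± 0.09, SD, n = 3 for each). Ccl5, the chemokine gene driven by Klf13, had 7.39, 6.65 and 6.85 and passed the limit on array 1 alone. Ranges over 0.5 were found for 2 of the 9, Ccl5 and Lgals3, against 7.68% of all genes. Lgals3, a gene repressed by Klf3, had 7.74, 7.20 and 7.49 and lay below the limit on array 2.

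Genes of the pathways that induce Klf10, Klf11 and Klf9 lay mostly above background, where 41.3% of all genes lay on all arrays. Of 10 TGF-beta pathway genes, 9 passed the limit on every array, Tgfb1 with 10.05 ± 0.20, Tgfbr1 with 9.81 ± 0.07, Tgfbr2 with 8.95 ± 0.22 and Smad2 with 9.36 ± 0.06 among them (SD, n = 3). Smad7, the feedback inhibitor of the pathway and a gene that Klf10 and Klf11 repress, had 8.25, 7.28 and 7.73 and was below the limit on array 2. Smad7 and Tgif1 (9.66, 8.94 and 8.96), a corepressor of the pathway chosen after its values were seen, were the 2 with ranges over 0.5, highest on array 1 like Klf10 and Klf11. The glucocorticoid response list had 7 of its 8 genes above background on every array, and 4 had ranges over 0.5, all highest on array 1. Over all genes 7.68% had such a range. Dusp1 (12.24, 10.89 and 11.08) is among these 4 and is counted again with the immediate-early genes below. The receptor gene Nr3c1 had 10.25, 10.26 and 10.33, and the receptor's induced gene Fkbp5 was lowest on array 1 with 10.88, 11.09 and 11.08. Per1, a clock gene also induced by glucocorticoid, had 9.56, 8.40 and 8.47. Tsc22d3, the glucocorticoid-induced leucine zipper gene, had 7.72, 7.28 and 7.41 and passed the limit on 2 arrays.

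Immediate-early genes, transcribed soon after a stimulus, were also mostly highest on array 1. Of 16 such genes 12 lay above background on all arrays, 14 were highest on array 1, and 10 had ranges over 0.5. Over all genes these shares were 41.3%, 36.4% and 7.68%. The median deviation of the 16 was 0.67, -0.35 and -0.28 on arrays 1, 2 and 3. Fos had 9.39, 7.86 and 8.27, Fosb had 9.40, 7.17 and 7.30, Jun had 11.01, 9.65 and 9.56, and Junb had 9.65, 7.97 and 7.87. Fosb passed the limit on array 1 alone. Of the Egr genes, Egr1 had 8.55, 8.28 and 8.33, and Egr2 (7.24, 7.61 and 7.60) and Egr3 (8.13, 8.21 and 8.14) were not highest on array 1. Ier3 (6.42, 5.66 and 5.74) and Atf3 (6.47, 5.95 and 5.50) were below background on every array. By limma's variance test 0 of the 16 passed the adjusted threshold. Unadjusted, 10 had a p under 0.05, as did 4.66% of all probe sets. What part an induced early response has in the KLF values was not tested.

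**Figure D5:**
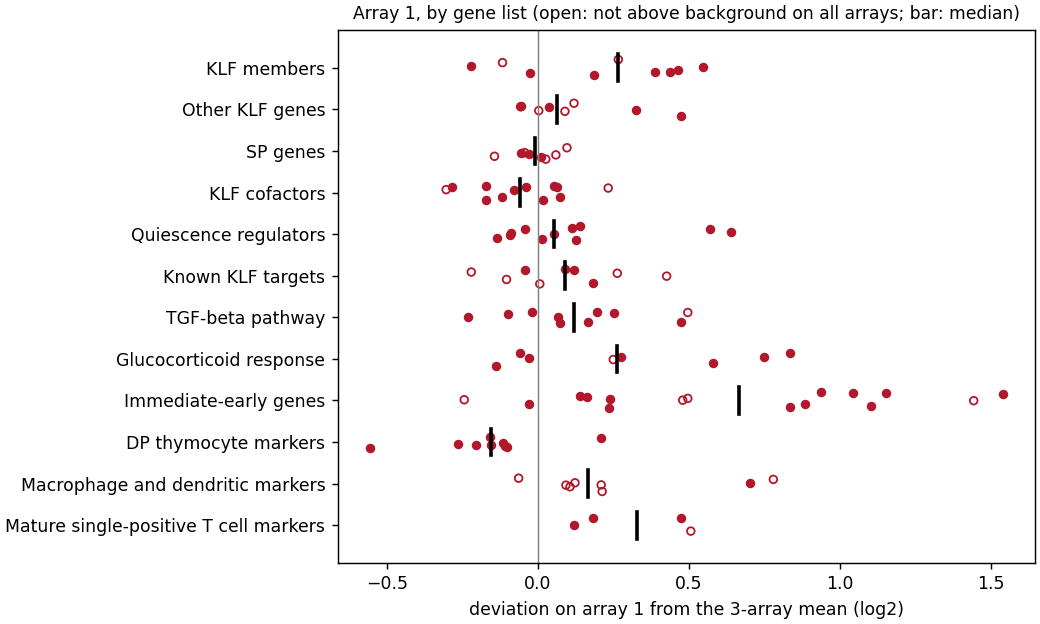
Deviation on array 1 from the 3-array mean in log2 units (horizontal axis) of each gene (points) in 12 lists, with the list median as a bar and open points for genes not above background on all arrays. The KLF members have a median of 0.27, between the SP genes at -0.01 and the immediate-early genes at 0.67. The other KLF genes have a median of 0.06.

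Markers of DP cells and of mature T cells also differed between the arrays. DP markers were lowest on array 1 in 8 of 9 cases, against 41.5% of all genes. Rag2 (8.69, 9.51 and 9.54) had the widest range, and Cd8a (13.03, 13.27 and 13.26), Cd8b1 (11.76, 12.05 and 12.08) and Rag1 (13.39, 13.56 and 13.57) had narrower ones. Cd3e went the other way, highest on array 1, with 12.29, 12.01 and 11.94. The markers' summed unlogged signal was 37697, 43329 and 42979 on arrays 1, 2 and 3. Markers of mature single-positive T cells were highest on array 1 in 4 of 4 cases, against 36.4% of all genes, with sums of 1395, 938 and 1045, of which Klf2 is itself a part. Il7r among them had 8.02, 7.16 and 7.36 and passed the limit on array 1 alone. S1pr1 (8.01, 7.56 and 7.91) and Ccr7 (8.31, 8.03 and 8.23) were lowest on array 2, and their array 3 values lay nearer to array 1. By limma's variance test 0 of the 9 DP and 0 of the 4 mature markers passed the adjusted threshold. Unadjusted, 1 and 2 had a p under 0.05, as did 4.66% of all probe sets. In bulk RNA, fewer cells of a type and less RNA per cell cannot be told apart.

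Markers of macrophages and dendritic cells, a lineage in which Klf4 is known to act, had sums of 1655, 892 and 1174. Of the 8, 6 were highest on array 1, against 36.4% of all genes. The class II genes Cd74 (8.83, 7.27 and 8.05) and H2-Ab1 (9.26, 7.91 and 8.50) had the widest ranges among these markers. Cd74 lay below the limit on array 2. The defining genes Csf1r, Lyz2, Itgam, Itgax and Adgre1 lay below background on all 3 arrays, and Cd68, with 7.45, 6.99 and 7.27, passed the limit on array 1 alone. Over all genes 41.3% lay above background on all arrays, the share to set beside the lists that follow. Of the thymic epithelial markers 0 of 6 lay above background on all arrays, with sums of 511, 635 and 684. Array 1 was lowest for 5 of 6, against 41.5% of all genes. Foxn1, Psmb11 and Krt5 were below background on every array, and Krt8 (6.70, 6.83 and 7.55) passed the limit on array 3. Of 6 endothelial and stromal markers Pecam1 and Col1a1 lay above background on all arrays, with sums of 1113, 1074 and 1100. Col1a1 passed the limit by only 0.13, 0.03 and 0.17 on arrays 1, 2 and 3. With the 99th percentile as the limit, 1 of the 6 lay above background on all arrays. Cdh5, Kdr and Tek, which mark endothelium, were below background on every array. Of 5 measured B cell markers, Cd79b lay above background and Cd79a, Ms4a1, Pax5 and Ebf1 did not, with sums of 609, 604 and 635. The 3 measured erythroid markers, Klf1, Alas2 and Epor, were all below background, with sums of 226, 235 and 236. For the 9 KLF genes the sums were 7005, 5861 and 5514. The part of these other cells in the KLF values was not tested.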

How the data were processed

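Values of 3 microarrays of DP thymocytes were analysed. The deposited table gives log2 expression, with 1 value for each probe set on each array, and this unit was read from the span of 1.6 to 14.94. Per the submitters' processing notes the R package affy was used, and the sources used here give neither its version nor its settings. The arrays' sorted values differ by at most 0.15, so a global difference between cohorts would not show. Per the labels' protocols cells were fixed before sorting, and whether this holds for the RNA samples is not stated. Litter mate cohorts are the labels' biological replicates.

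Of 35556 probe sets, 6612 of the lowest numbers, none with a symbol, were left out as controls. Gene symbols came from the platform's annotation. For the remaining 28944, limma 3.58.1 (R 4.3.3) fitted an intercept, and an F test set each variance against a robust prior that follows the level, with Benjamini-Hochberg adjustment. Variances near 0 were handled by limma's own offset, in place of a floor tried first, a choice made after the floor's calls were seen. Checked on simulated data, the test recovered the wide shifts planted on 1 array and missed the narrowest. That narrowest shift was wider than the range of any member. Of 110 organ-specific genes listed for the background limit, 95 were measured, and 4 of these lay above it on all arrays. Other steps used Python 3.11.15 and pandas 2.3.3.

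The members and 15 further lists were chosen with earlier results of these data known, and the grouping of members by role and the promoter motifs after their values were seen. Named genes were the members, measured KLF and SP genes, the first 4 measured genes of each other list, those on the minority side of the limit where 5 or fewer, and the 3 genes most like the member of the widest range, with Xist, Fos, Jun, Cd74 and Cd4 as checks of the arrays. Ccl5, Lgals3, Tfap2a, Tgif1, Dusp1, Egr1, Egr3, Rag2, Cd3e, Adgre1, Cd68 and Ebf1 fall outside this rule and were chosen after their values were seen. Alternatives were other background limits, scalings, probe set rules, priors and thresholds, and leaving out each array.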

Additional observations from a re-analysis of the deposited data

How the results depend on the processing

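The count of 7 members above background was the same or within 1.5 times under every alternative run, namely 6 with the 99th percentile, without Klf4, and 7 under the others. Of 52 alternatives of the summary results, 48 kept the value within the spread or the count within 1.5 times. Of the exceptions, 2 concern the 4 members with a range over 0.5, which were 0 with a threshold of 1 log2 unit. Leaving out 1 array gave between 0 (without array 1) and 4 members. By limma the variance test called 0 members under every planned prior, scaling, filter and left-out array, with 1 to 4 members at an unadjusted p under 0.05 and a lowest adjusted p from 0.811 to 0.981. The other 2 exceptions come from a variance floor of 1e-05. This floor was the first setting run, and the choice to do without it was made after seeing the data. With it limma called 6 probe sets and 0 members over all arrays, and with an array left out between 0 and 1 members, the 1 being Klf6 without array 2 or without array 3. Probe sets called without array 1, 2 and 3 were then 126, 300 and 304, against 18, 0 and 0 without the floor, and the cause was not tested. Of 138 alternatives for single genes and other lists, 11 moved, 8 of them ranges of members without array 1. No paired analysis was possible because the series has 1 group. The number of arrays limits the precision.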
